A study of Mus musculus with 38 samples.

Results

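The cytosolic ribosomal protein genes are the genes whose products, together with ribosomal RNA, make up the 40S and 60S subunits of the ribosome. They were taken by symbol (Rpl or Rps and a number, with or without a letter a, x or y, Rplp0 to Rplp2, and Rpsa), and 76 of the 55385 rows of the count table matched. Of these, 42 had counts above 0, 19 for proteins of the small subunit and 23 for proteins of the large subunit, and the other 34 were listed at 0 in every library. The mitochondrial ribosomal protein genes (Mrpl or Mrps and a number) were set beside them as a contrast, with 63 of 75 above 0.

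The 38 libraries come from mouse embryonic stem cells of the 129S6/SvEvTac strain, sequenced as stranded total RNA in 2 experimental batches. In the first batch, labelled 2450 (26 libraries, 13 groups of 2), wild-type cells were kept with the vehicle DMSO (1 h or 24 h), with BRM014 at 10 uM (5 durations: 30 min, 1 h, 3 h, 6 h and 24 h) or with an inactive analog at 10 uM (1 h or 24 h). Washout groups were collected 30 min and 1 h after 1 h of BRM014, and 6 h and 24 h after 24 h of BRM014, with no dose in their labels. In the second batch, labelled 2457 (12 libraries, 6 groups of 2), wild-type, Ino80ko and Snf2hko cells received DMSO or 10 uM BRM014 for 24 h. BRM014 blocks BRG1 and BRM, the ATPases of the SWI/SNF chromatin remodeller. The knockout labels name the ATPase of the INO80 remodeller (Ino80ko) and an ATPase of the ISWI family (Snf2hko). The labels do not say whether a knockout line is 1 clone, and they call the replicates biological without naming cultures or days, so the p-values here rest on a spread between samples that may be technical in part.

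Most ribosomal proteins are present once in each ribosome (those of the P stalk more often), and their messages are among the most abundant of a growing stem cell. In mammals most of these messages begin with a run of pyrimidines (the 5′ terminal oligopyrimidine, or TOP, motif), through which mTOR signalling controls their translation. Mitochondrial ribosomal proteins are also encoded in the nucleus but build a separate ribosome, and their messages mostly lack that motif.

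Pyrimidine runs were looked for at the start sites. RefSeq promoters (GRCm38.p6) were matched by symbol for 32 of the 42 members, and the window read runs from 50 bases before the annotated gene start through its first 25 bases. A run of 8 pyrimidines on the sense strand lay in this window in 75.0% of the 32, against 31.6% of 57 mitochondrial ribosomal protein genes and 32.4% of 27025 genes. It covered the annotated first base in 13 of the 32 (40.6%), against 1.75% and 4.59%. The windows below belong to 7 members named further on for their difference in drug response between genotypes, with the pyrimidine runs of at least 8 bases in capitals. They lie at chr4:86857343-86857417 (Rps6, minus strand), chr9:120571467-120571541 (Rpl14, plus strand), chr11:114668530-114668604 (Rpl38, plus strand), chr11:68901516-68901590 (Rpl26, plus strand), chr1:39367801-39367875 (Rpl31, plus strand), chrX:134585604-134585678 (Rpl36a, plus strand) and chr17:33824538-33824612 (Rps28, minus strand).
Rps6: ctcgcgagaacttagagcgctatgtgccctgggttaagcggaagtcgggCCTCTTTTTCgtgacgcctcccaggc
Rpl14: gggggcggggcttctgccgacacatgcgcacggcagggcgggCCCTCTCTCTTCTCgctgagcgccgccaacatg
Rpl38: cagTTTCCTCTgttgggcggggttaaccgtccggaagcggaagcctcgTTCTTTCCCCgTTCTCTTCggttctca
Rpl26: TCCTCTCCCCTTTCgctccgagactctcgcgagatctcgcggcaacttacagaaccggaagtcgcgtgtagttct
Rpl31: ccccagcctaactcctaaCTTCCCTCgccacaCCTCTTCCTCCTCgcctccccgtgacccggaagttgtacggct
Rpl36a: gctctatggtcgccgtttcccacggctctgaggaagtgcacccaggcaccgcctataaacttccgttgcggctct
Rps28: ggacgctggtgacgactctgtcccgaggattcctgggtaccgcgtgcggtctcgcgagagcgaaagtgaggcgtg
A run covers the annotated first base in Rps6, Rpl14 and Rpl38, lies upstream in Rpl26 and Rpl31, and is not in the window of Rpl36a or Rps28. The other 4 motifs searched were CTTCCGG on both strands (18.8% of members, 21.1% of mitochondrial members, 5.28% of all genes), CTCTTTC on the sense strand (18.8%, 0% and 1.24%; it overlaps the pyrimidine run), TATAAA on the sense strand (6.25%, 0% and 3.64%) and AAGATGGC on both strands (6.25%, 5.26% and 0.888%). The motifs and the window were chosen after promoters of members had been seen, so these shares are descriptions and no test was made.

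What the table leaves out bears on every count that follows. Of the 34 members listed at 0, 33 overlap another annotated gene on the same strand in GENCODE M21, in 29 cases a small nucleolar RNA gene, and Rpl9 is the exception. None of the 42 members with counts has such an overlap (0 of 42). A row at 0 here therefore says nothing of expression. Rpsa, Rplp2, Rpl3 and Rpl5 are among the members at 0, and so are all 17 rows of snoRNA host genes. A further 12 of the 42 overlap a gene on the opposite strand, and how strand entered the counting is not given in the sources used here.

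Library totals were 19349695 to 23053021 counts in the first batch and 21948010 to 44453556 in the second. The 42 members took 3.14% to 4.20% and 3.08% to 4.42% of the counts of a library, 640406 counts or more. As a check of labels, Ino80 stood at 119 to 133 CPM (counts scaled to the library size) in the Ino80ko libraries and 153 to 173 in wild type of the same batch, but also at 118 to 134 in Snf2hko. Smarca5, which encodes SNF2H, is listed at 0 throughout, so the Snf2hko label could not be checked. Summed markers of pluripotent cells were 4835 to 6786 CPM over the second batch.

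Within the wild-type DMSO group of the second batch, levels per kilobase of exon spanned from 63.0 ± 5.34 CPM per kb for Rpl29 to 2479 ± 157 for Rplp1 (SD, n = 2). Rplp1 and Rplp0, both of the P stalk that recruits elongation factors, and the large subunit gene Rpl8 were highest, with Rplp0 at 1741 ± 133 and Rpl8 at 1736 ± 156. Those last 2 differ by less than their spread. Rps15 (1139 ± 233) and Rpl7 (1062 ± 88.8), lower on this scale, also differ by less than their spread, and Rpl35a (69.8 ± 2.93) was the lowest but 1. The exon length is the deposited union over isoforms, so a gene with long rare exons sits too low on this scale.

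In the second batch, wild-type cells carried more of these messages after 24 h of BRM014 than with DMSO. There the edgeR quasi-likelihood test (adjusted p under 0.05, Benjamini-Hochberg over all genes) called 16 of 42 members higher and 0 lower, against 20.6% higher and 21.7% lower among all 13130 genes tested. The median change was 0.18 (log2), against -0.016 over all genes, and every member's estimate was positive, from 0.04 to 0.46. Small subunit genes had 9 of 19 called and large subunit genes 7 of 23. Both BRM014 libraries lay above both DMSO libraries in 29 of the 42, against 33% of all genes. DESeq2 called 17.

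Rps4x, the X-linked copy of a small subunit gene, stood at 1522 and 1482 CPM with DMSO and at 1876 and 1907 with BRM014. Its BRM014 libraries lie above both DMSO libraries, and the change was 0.33 ± 0.08 (log2 ± SE, edgeR adjusted p = 0.00168). Rps6, whose product is the substrate of S6 kinase downstream of mTOR, went from 1120 and 994 CPM to 1299 and 1236. Rps14, a small subunit gene whose loss in people is tied to anaemia, went from 1191 and 1017 CPM to 1378 and 1653 (0.46 ± 0.15, edgeR adjusted p = 0.0274), the highest estimate among the members. In all 3 genes the drug libraries do not overlap the vehicle libraries. The others named by size were Rps29 (0.34 ± 0.11), Rps18 (0.33 ± 0.09), Rpl26 (0.32 ± 0.10), Rpl7 (0.31 ± 0.09) and Rps25 (0.30 ± 0.08), all structural proteins of their subunits. In none of the named genes did the change reach 2-fold.

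Some other members can be named for a textbook role, whether called or not. Rpl11, which with Rpl5 and 5S RNA binds Mdm2, changed by 0.06 ± 0.09, and Rps19, the gene most often mutated in Diamond-Blackfan anaemia, by 0.16 ± 0.09. Rps27a, which encodes ubiquitin fused to a small subunit protein, changed by 0.12 ± 0.07 and the stalk base Rplp0 by 0.11 ± 0.08. Rplp1 stood at 1293 and 1182 CPM with DMSO and at 1772 and 1138 with BRM014, so its drug libraries lie on both sides of the vehicle. Rpl22, which also binds cellular and viral RNAs, was called (0.27 ± 0.07, edgeR adjusted p = 0.0053), as was Rpl38, known from the tail-short mouse (0.26 ± 0.09, adjusted p = 0.0214).

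**Figure D1:**
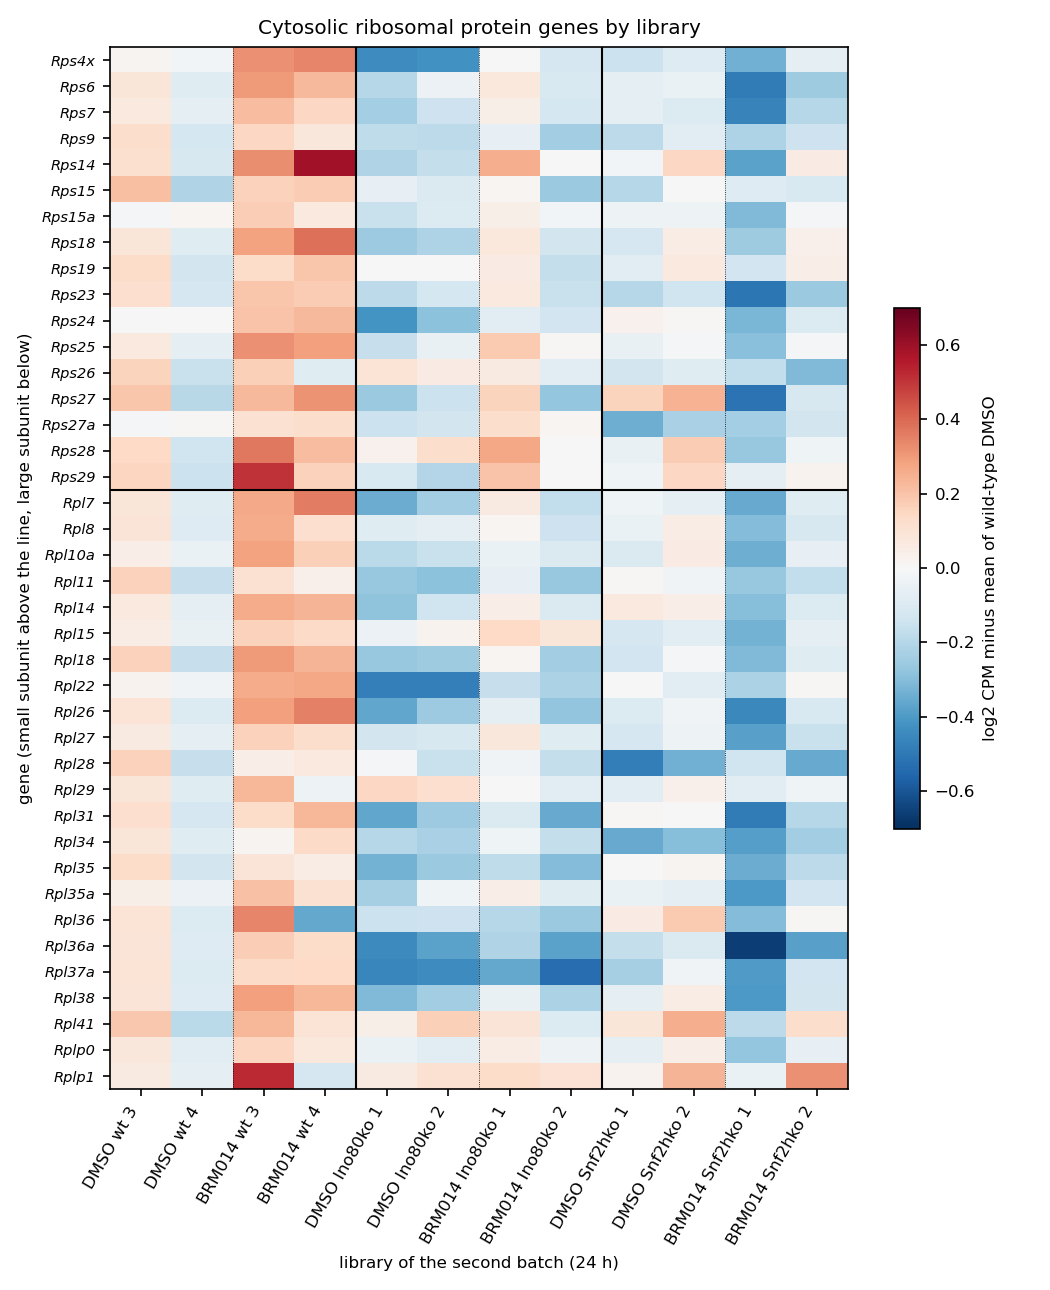
Each row is 1 of 40 of the cytosolic ribosomal protein genes and each column 1 of the 12 libraries of the second batch; colour is log2 CPM minus the mean of the 2 wild-type DMSO libraries (red higher, blue lower). The wild-type BRM014 columns are mostly red (over all 42 genes, both lie above both DMSO libraries in 29, against 33% of all genes), and Snf2hko BRM014 replicate 1 is mostly blue (over all 42 genes, the lowest of the 12 libraries in 24).

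The first batch showed less. BRM014 at 24 h was called higher in 1 of 42 members, Rps27a (0.17 ± 0.06, edgeR adjusted p = 0.0266), against 22.6% of 12517 genes higher and 23.2% lower, and the median was 0.064. Rps27a was at 682 and 579 CPM with DMSO and 720 and 702 with BRM014. The 2 DMSO libraries themselves stood apart: replicate 1 was above replicate 2 in 42 of 42 members, by a median of 0.30 (log2), which is more than the drug effect. When both batches were fitted together with a batch term, 24.8% of 11787 genes were called higher and 24.8% lower. Of the members, 8 were called higher and 0 lower (median 0.14), a share below the whole table, as in the first batch. Among them were Rpl10a, Rpl18, Rpl22, Rpl7, Rps14, Rps18 and Rps4x, and in none of the 8 did the groups separate within both batches. The difference between batches was called for 0 of 42 members (3.46% of all genes) by edgeR and by DESeq2, with 5 at an unadjusted p under 0.05 and a median difference of 0.17. Without DMSO replicate 4 the count was 2 of 42 in the second batch and 0 in both batches together, and without DMSO replicate 1 it was 19 in the first batch and 31 in both together. Without DMSO replicate 2, 10 members differed between batches.

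In Ino80ko cells, BRM014 raised 5 of 42 members and lowered 0 (22% of all genes higher and 22.6% lower), with a median of 0.12. Both shares of the members are below the whole table. The 5 were Rps4x (0.37 ± 0.08), Rpl22 (0.29 ± 0.07), Rps24 (0.25 ± 0.07), Rpl7 (0.24 ± 0.09) and Rps27a (0.21 ± 0.07). Rps4x stood at 1106 and 1119 CPM with DMSO and at 1500 and 1382 with BRM014 in this line, with no overlap. Rpl7, Rpl22, Rps24 and Rps4x, 4 of the 5, were also called higher in wild type of the same batch. The matching overlap over all genes is not given here. The drug effect differed between Ino80ko and wild type in 0 of 42 members by edgeR (4.16% of all genes higher and 4.87% lower) and by DESeq2, with 1 at an unadjusted p under 0.05 and a median difference of -0.086. Without BRM014 Ino80ko replicate 1 the count of 5 was 2, and without replicate 2 it was 11.

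In Snf2hko cells the members called went the other way, before the short-gene adjustment described further on. BRM014 lowered 14 of 42 and raised 0, against 28.2% lower and 28.7% higher among all genes, with a median of -0.17. The share lowered is near that of the whole table. Rps27, a zinc-finger protein of the small subunit, was at 569 and 605 CPM with DMSO and at 358 and 474 with BRM014 (-0.50 ± 0.18, edgeR adjusted p = 0.0422). Rpl36a, on the X chromosome, was at 436 and 456 CPM and then 310 and 376 (-0.38 ± 0.09, edgeR adjusted p = 0.000897). Rps6 was at 1005 and 1020 CPM and then 752 and 888 (-0.30 ± 0.09, edgeR adjusted p = 0.00532). In these 3 genes both drug libraries lie below both vehicle libraries, as in 19 of the 42 members, against 38.6% of all genes. The other falls named were Rpl31 (-0.34 ± 0.10), Rpl35 (-0.27 ± 0.08), Rpl38 (-0.25 ± 0.09), Rpl14 (-0.25 ± 0.08) and Rps7 (-0.25 ± 0.08), and Rpl28 had the highest estimate (0.17 ± 0.10, not called).

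**Figure D2:**
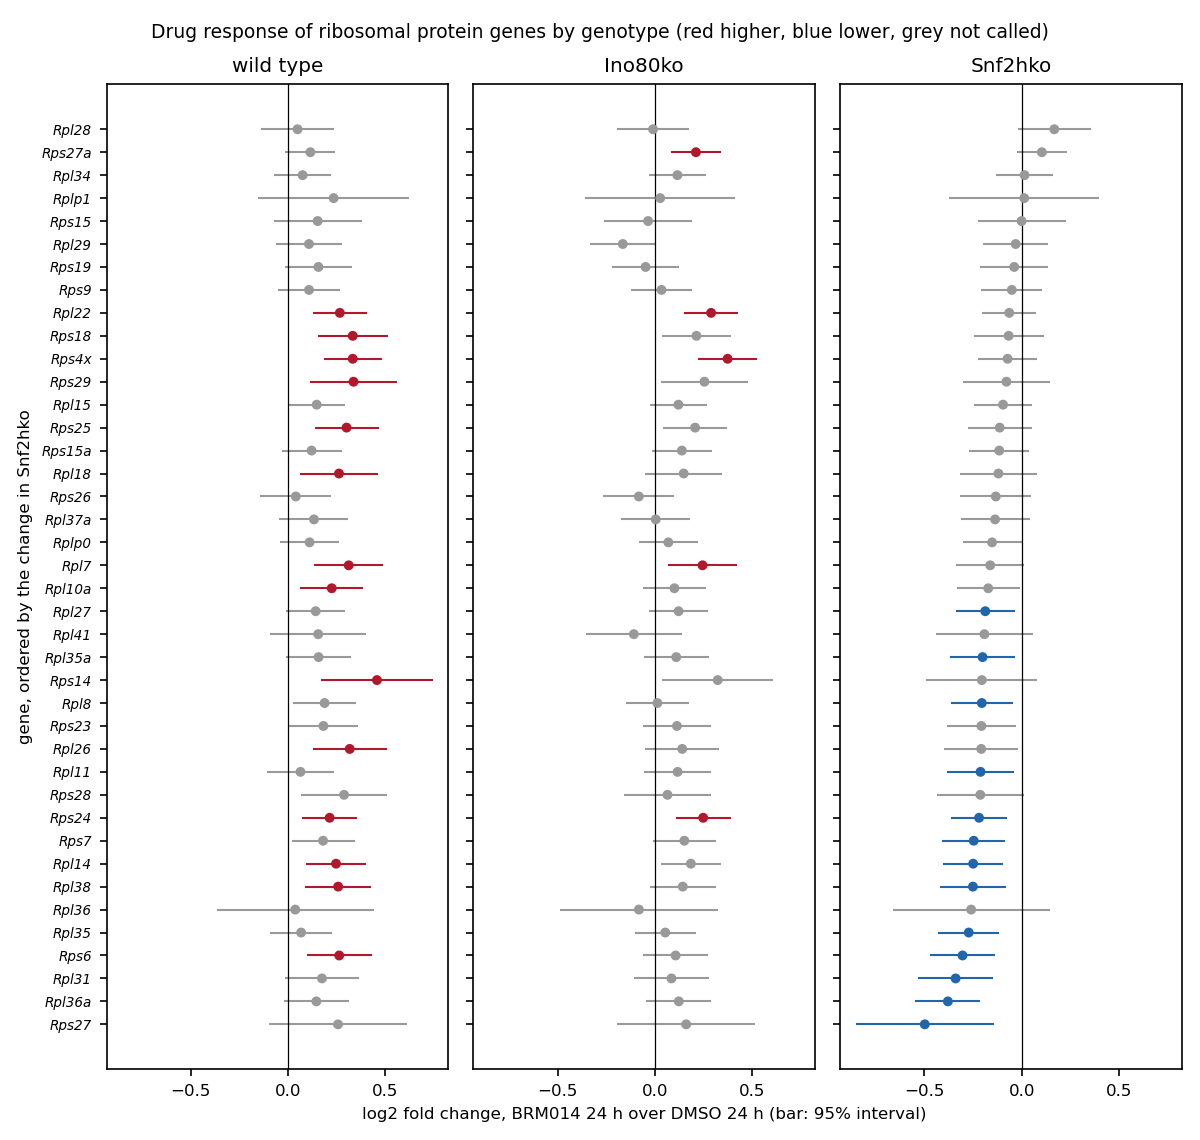
Points are log2 fold changes of BRM014 24 h over DMSO 24 h for 40 of the 42 genes in 3 genotypes of the second batch, with bars for the 95% interval of the edgeR fit; red is called higher, blue called lower, grey not called. Of the 40 genes drawn, 14 are red in wild type and 5 in Ino80ko, and 13 are blue in Snf2hko; these are values before the adjustment for short genes described in the text.

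The drug effect differed between Snf2hko and wild type in 23 of 42 members, all lower in Snf2hko, against 16.8% of all genes lower and 15.8% higher. The median difference was -0.37 (log2), and 38 of 42 had a positive estimate in wild type and a negative one in Snf2hko. The matching share of all genes is not given here. Members shift together between libraries, as described further on, so these are not 38 separate readings. The named members were Rps14 (-0.66 ± 0.21), Rps6 (-0.57 ± 0.12), Rpl36a (-0.53 ± 0.12), Rpl26 (-0.53 ± 0.14), Rpl31 (-0.51 ± 0.14), Rpl38 (-0.51 ± 0.12), Rps28 (-0.50 ± 0.16) and Rpl14 (-0.50 ± 0.11), with edgeR adjusted p from 0.00142 (Rps6) to 0.0314 (Rps14). Of the 23, 14 had been called higher in wild type and 12 lower in Snf2hko. Those called in both include Rpl14, Rpl38, Rps24 and Rps6, and Rps23 and Rps28 were called in neither. Between Snf2hko and Ino80ko the drug effect differed in 15 members, all lower in Snf2hko (17.5% of all genes lower and 16.4% higher), with a median of -0.29 and with Rpl36a (-0.50 ± 0.12), Rps24 (-0.47 ± 0.10) and Rps4x (-0.45 ± 0.11) the largest named.

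Most of these differences did not hold when the median of other, short genes in each library was added to the fit. The members were not chosen by length, and theirs ran from 383 bases of exon (Rpl36) to 6270 (Rps15a). For this fit, 243 other genes with at most 1500 bases of exon and a mean log2 CPM of at least 5 were followed beside the members. Relative to wild-type DMSO, the median of these short genes was 0.069 and 0.11 in the Snf2hko DMSO libraries and -0.20 and -0.023 in the Snf2hko BRM014 libraries, while that of the members was -0.067 and -0.014, and then -0.31 and -0.095. The short genes thus fell with the members in this line, and the lower BRM014 library, replicate 1, was lower in both. In wild type the short genes stood at 0.038 and -0.048 under BRM014 and the members at 0.22 and 0.17.

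With the short-gene median of each library as a covariate, an alternative chosen after seeing the data, the Snf2hko drug response had 0 members lower and 3 higher with a median of 0.096, in place of 14 lower. Rps6 then changed by -0.03 (adjusted p = 0.821) and Rpl36a by -0.10 (adjusted p = 0.324), and Rpl38 and Rps7 changed sign (0.039 and 0.0097). The count that differed from wild type went from 23 to 3, with a median of -0.11. Of the 8 named members Rps6 (-0.30, adjusted p = 0.025) and Rpl14 (-0.28, adjusted p = 0.0354) stayed called. The count against Ino80ko went from 15 lower to 1 lower and 1 higher. Shares of all genes called with this covariate, or with a library left out, are not given here. Such changes in count are therefore not set against the whole table. Since the short-gene median itself differs between groups, a shift of short genes and an effect of genotype cannot be fully told apart here.

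The wild-type median in the second batch did not shrink under that covariate, and more members were called. The count went from 16 to 28 of 42 in the second batch, with a median of 0.19, from 1 to 18 in the first batch and from 8 to 28 in both together, and in Ino80ko from 5 to 13. The covariate also follows shifts between replicates, as in wild-type DMSO replicates 3 and 4 (0.063 and -0.063, members 0.088 and -0.088). The higher counts are therefore no separate support. The members named by size for wild type in the second batch all stayed called, with Rps4x at 0.34 and Rps14 at 0.48. A single library also decides much of the Snf2hko result: without BRM014 Snf2hko replicate 1, 1 member was lower in that line, and without replicate 2, 28 were. The count that differed from wild type ranged from 10 to 33 as each library was left out, and the count against Ino80ko from 5 to 28.

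**Figure D3:**
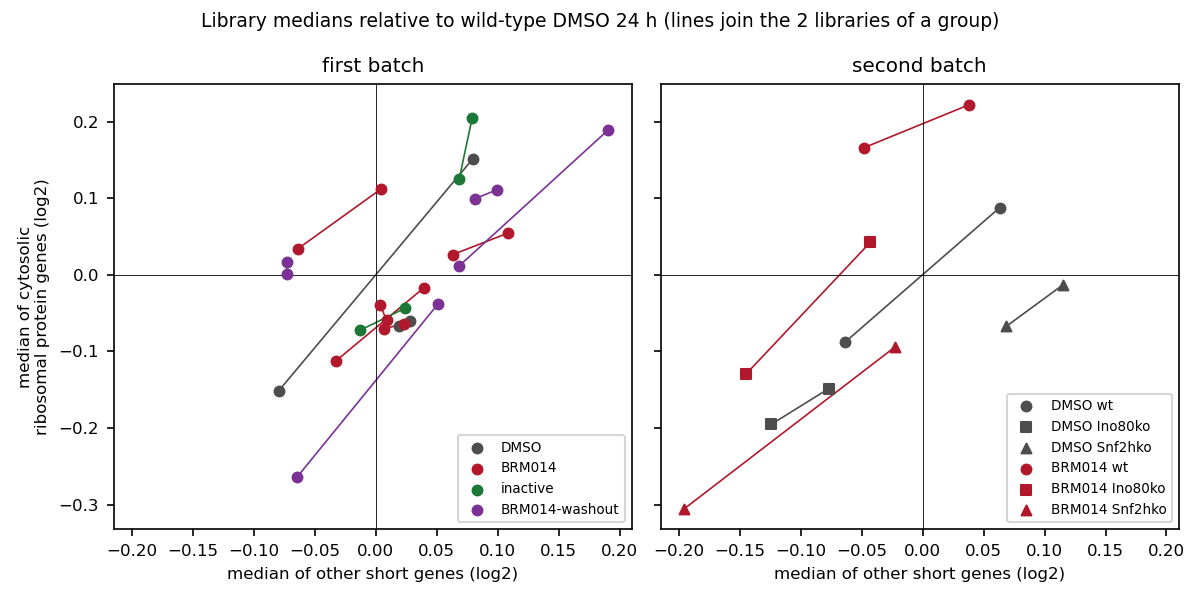
Each point is a library, with the median of 251 (first batch) or 243 (second batch) other short genes on the x axis and of the 42 members on the y axis, both in log2 relative to wild-type DMSO 24 h of the batch; lines join the 2 libraries of a group. Replicates that differ on one axis mostly differ the same way on the other, wild-type BRM014 lies high (0.22 and 0.17) for its short-gene median, and Snf2hko BRM014 replicate 1 is lowest on both axes of the second batch (-0.31 and -0.20).

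Such shared shifts also appear between replicates that had the same treatment. BRM014 Ino80ko replicate 1 was above replicate 2 in 42 of 42 members (median gap 0.17), BRM014 Snf2hko replicate 2 above replicate 1 in 39 (0.21), and wild-type DMSO replicate 3 above replicate 4 in 39 (0.18). The short genes of those pairs differed the same way, by 0.10, 0.17 and 0.13, and by 0.16 in the DMSO 24 h pair of the first batch. The members therefore do not give 42 independent readings of a condition.

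Comparing lines rather than treatments, the members called without the short-gene covariate were all lower in the knockouts, in Ino80ko with either treatment and in Snf2hko in 3 with DMSO and 36 with BRM014. Snf2hko with BRM014 was below wild type with BRM014 in 36 of 42 members, against 29.4% of all genes lower and 32.4% higher, with a median of -0.40. Rpl36a was at 551 and 535 CPM in wild type and 310 and 376 in Snf2hko (-0.66 ± 0.09, edgeR adjusted p = 1.83e-06). Rps6 was at 1299 and 1236 CPM and 752 and 888 (-0.63 ± 0.09, edgeR adjusted p = 3.65e-06), and Rps14 differed by -0.60 ± 0.15. Neither Rpl36a nor Rps6 overlaps between the lines, and both wild-type libraries were above both Snf2hko libraries in 38 members, against 37.4% of all genes. Rpl29, Rpl36, Rpl41, Rplp1, Rps15 and Rps19 were the 6 members not called. This count ranged from 31 to 38 with each library left out, and was 32 with the short-gene covariate (median -0.29).

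With DMSO the Snf2hko line was lower in 3 members, against 27.7% of all genes lower and 28.9% higher: Rpl28 (-0.42 ± 0.10), Rpl34 (-0.33 ± 0.07) and Rps27a (-0.28 ± 0.07), with edgeR adjusted p from 0.000912 to 0.00112. Rpl28 stood at 591 and 473 CPM in wild type and at 378 and 419 in Snf2hko, without overlap. The median was -0.035, and with the short-gene covariate 18 members were lower (median -0.15). Leaving out wild-type DMSO replicate 4 gave 7.

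Ino80ko was lower than wild type in 16 members with DMSO (22.9% of all genes lower and 22.1% higher; median -0.17) and in 22 with BRM014 (22.3% lower and 21.8% higher; median -0.26). Rpl22 was at 624 and 603 CPM in wild type and 440 and 440 in Ino80ko with DMSO (-0.48 ± 0.07, edgeR adjusted p = 2.13e-05). Rpl37a, a zinc-finger protein of the large subunit, was at 739 and 645 CPM and 504 and 509 (-0.45 ± 0.09), and Rps4x was at 1522 and 1482 CPM and 1106 and 1119 (-0.43 ± 0.08). None of the 3 overlaps between the lines. With BRM014 the leading members were Rpl37a (-0.58 ± 0.09), Rpl26 (-0.49 ± 0.10) and Rpl22 (-0.46 ± 0.07). All 22 lower in Ino80ko with BRM014 were also lower in Snf2hko with BRM014. Both comparisons share the wild-type libraries, and the matching overlap over all genes is not given here. With the short-gene covariate the counts were 7 lower and 3 higher with DMSO and 18 lower with BRM014, and with each library left out 6 to 21 and 8 to 27. Without DMSO Ino80ko replicate 1 the count with DMSO was 6, and without BRM014 Ino80ko replicate 2 that with BRM014 was 8.

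Markers of primitive endoderm differed with the lines. Their summed level over the 5 of 6 genes with counts (Pdgfra is at 0) was 660 to 677 CPM in Snf2hko with DMSO and 980 to 1123 with BRM014. In wild type it was 136 to 140 and 189 to 199, and in Ino80ko 64.6 to 69.9 and 56.8 to 58.4. The summed pluripotency markers, 8 of 8 with counts, were 4925 to 5164 CPM in Snf2hko with DMSO and 4835 to 5193 with BRM014. In wild type they were 5323 to 5610 and 6054 to 6362, and in Ino80ko 5881 to 6122 and 6568 to 6786. Early mesoderm markers were 18.3 to 18.9 and 31.2 to 36.4 CPM in Snf2hko, in the same order of treatments. They were 6.34 to 7.28 and 8.34 to 8.67 in wild type, and 6.36 to 6.65 and 15.9 to 17.3 in Ino80ko. The part of these markers in the differences between lines was not tested, and in bulk samples fewer cells of a type and less RNA per cell cannot be told apart.

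In the time course of the first batch few members were called at any time. The median was 0.064 at 24 h over DMSO 24 h, and 0.064 at 3 h over a different baseline, given below. Relative to DMSO 24 h alone, the library medians were 0.026 and 0.055 at 3 h and 0.11 and 0.034 at 24 h. By edgeR, 0 of 42 were called at 30 min (0% of all genes; 0 at an unadjusted p under 0.05) and 0 at 1 h (0.599% of all genes; 0 at an unadjusted p under 0.05), and DESeq2 called 0 at both. The 30 min group has no vehicle of its own and was set against DMSO 1 h. At 3 h and 6 h, which also lack one, the average of the DMSO groups at 1 h and 24 h served as the baseline. At 3 h, 3 were higher and 0 lower (15.5% and 15.7% of all genes): Rps26 (0.19 ± 0.06), Rplp0 (0.16 ± 0.06) and Rpl15 (0.16 ± 0.06). None of these 3 stayed called with the short-gene covariate, and the count was 16 without DMSO 24 h replicate 1 and 0 without BRM014 3 h replicate 2. At 6 h, 1 was higher and 0 lower (24.9% and 23.5% of all genes), Rps27a at 0.15 ± 0.05. Between DMSO at 1 h and at 24 h, Rps4x alone was called (0.16 ± 0.06, edgeR adjusted p = 0.043; 8.91% of all genes higher and 9.63% lower), at 1352 and 1357 CPM and then 1540 and 1492.

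**Figure D4:**
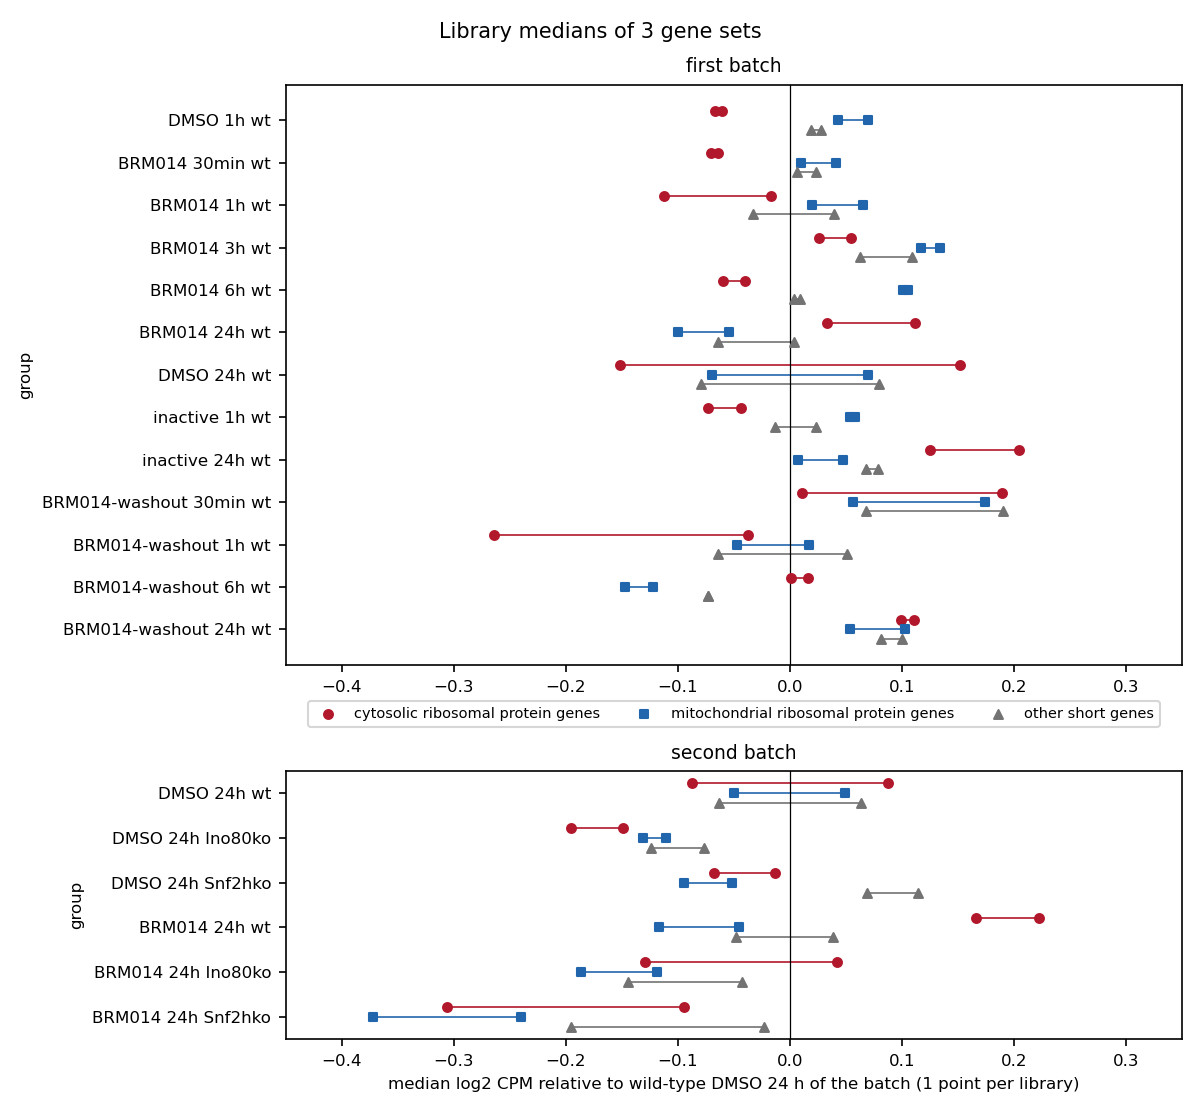
Library medians (log2 CPM relative to wild-type DMSO 24 h of the same batch) of the 42 cytosolic ribosomal protein genes (circles), 63 mitochondrial ones (squares) and other short genes (triangles), 1 row per group and 1 point per library. The DMSO 24 h replicates of the first batch lie 0.30 apart for the cytosolic set, and in wild-type BRM014 at 24 h of the second batch the cytosolic set is at 0.22 and 0.17 and the mitochondrial one at -0.045 and -0.12.

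The inactive analog, given at the same dose as BRM014, was followed at 1 h and 24 h. At 1 h edgeR called 0 of 42 against DMSO (0.184% of all genes; 1 at an unadjusted p under 0.05) and 0 between the compounds (0.16% of all genes; 1 at an unadjusted p under 0.05), and DESeq2 called 0 in both. At 24 h the analog was higher than DMSO in 5 members (8.91% of all genes higher and 9.52% lower; median 0.16): Rplp0 (0.26 ± 0.07), Rpl35a (0.25 ± 0.08), Rpl7 (0.20 ± 0.06), Rps27a (0.19 ± 0.06) and Rps7 (0.19 ± 0.06). Rpl35a overlaps between the groups, at 279 and 320 CPM with the analog and 282 and 222 with DMSO. Rplp0 stood at 3281 and 3300 CPM with the analog, at 2976 and 2517 with DMSO and at 2924 and 2801 with BRM014. The analog libraries are thus the highest of the 3 groups in this gene.

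Between the compounds at 24 h, 3 members were lower with BRM014 (18.1% of all genes lower and 17.3% higher), among them Rplp0 (-0.20 ± 0.07) and Rps7 (-0.16 ± 0.06), with edgeR adjusted p from 0.0251 to 0.047. The median was -0.099, and 0.067 with the short-gene covariate, under which none of the 3 stayed called. Over DMSO the median was 0.064 with BRM014 and 0.16 with the analog; both comparisons share the same DMSO libraries, and the second batch has no analog group. Leaving out DMSO replicate 1 or 2 took the analog's count from 5 to 32 or 0 and its median to 0.32 or 0.027, and with the covariate the count was 1.

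After washout the median change of the members over DMSO 24 h was 0.0038 at 6 h and 0.087 at 24 h. These washout groups have no vehicle of the same total time. Against DMSO 24 h, edgeR called 0 of 42 at 6 h after the washout (20.8% of all genes higher and 19% lower; 0 at an unadjusted p under 0.05) and 0 at 24 h (8.91% of all genes higher and 8.52% lower; 4 at an unadjusted p under 0.05), and DESeq2 called 0 at both, but the spread of those DMSO libraries limits both tests. Without DMSO 24 h replicate 1, 11 were higher at 6 h and 23 at 24 h, and with the short-gene covariate 18 were higher at 6 h. Against BRM014 24 h, Rps27a was lower at 6 h (-0.17 ± 0.06; 23.4% of all genes lower and 25.3% higher). At 24 h, Rps29 (-0.27 ± 0.08) and Rps26 (-0.17 ± 0.07) were lower and Rpl35 (0.27 ± 0.09) and Rpl37a (0.22 ± 0.09) higher, against 24.6% and 25.8% of all genes. With the covariate the last comparison had 22 lower (median -0.18), and Rpl37a was at -0.0011.

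After 1 h of BRM014, a washout of 30 min was called higher in 3 members (2.88% of all genes higher and 3.01% lower; median 0.16), Rpl35a (0.25 ± 0.08), Rps25 (0.24 ± 0.07) and Rpl7 (0.20 ± 0.06). None stayed called with the covariate, and the count was 0 without BRM014 1 h replicate 2 and 16 without washout replicate 1. A washout of 1 h was called in 0 (3.98% of all genes), also by DESeq2, with 3 at an unadjusted p under 0.05 and a median of -0.073. The replicates of both washouts differ: at 30 min replicate 2 was above replicate 1 in 40 of 42 members, and at 1 h replicate 1 was above replicate 2 in 41.

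The mitochondrial ribosomal proteins are set beside the cytosolic ones with no test between the sets. In wild type of the second batch BRM014 lowered 14 of 63 and raised 3 (21.7% and 20.6% of all genes), a share lowered near that of the whole table, with a median of -0.087 where that of the cytosolic set was 0.18. Mrpl34 fell from 44.9 and 39.5 CPM to 33.0 and 25.1 (-0.53 ± 0.12) and Mrpl23 from 36.0 and 28.4 to 21.8 and 23.3 (-0.52 ± 0.12). Mrpl45 rose from 226 and 214 CPM to 315 and 305 (0.50 ± 0.07, edgeR adjusted p = 7.7e-06). All 3 separate the libraries of the 2 groups. In Ino80ko 11 were higher and 6 lower (22% and 22.6% of all genes, so both shares are below the whole table), led by Mrpl45 (0.56 ± 0.07), Mrps27 (0.41 ± 0.07) and Mrpl34 (-0.55 ± 0.12).

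In Snf2hko 35 of 63 were lower and 4 higher (28.2% and 28.7% of all genes), with a median of -0.27, and the cytosolic median was also negative (-0.17). Mrps31 fell from 105 and 96.8 CPM to 60.2 and 66.1 (-0.67 ± 0.07, edgeR adjusted p = 8.34e-08), where wild type had 104 and 106 with DMSO and 115 and 116 with BRM014. Mrpl23 fell by 1.24 ± 0.12 and Mrpl24 by 0.63 ± 0.08, while Mrps10 rose by 0.37 ± 0.09. The drug effect differed from wild type in 17 lower and 3 higher members of the set (16.8% and 15.8% of all genes). With the short-gene covariate 12 were lower in Snf2hko and 5 differed in the lower direction, among them Mrps31 (-0.76, adjusted p = 5.93e-05) and Mrpl24 (-0.47, adjusted p = 0.00849). In Ino80ko the effect differed upward in 4, a share close to the 4.16% of all genes, with Mrpl40 (0.57 ± 0.12), Mrps27 (0.38 ± 0.10) and Mrpl9 (0.38 ± 0.10) named, and these 3 stayed called under the covariate.

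Genes that build the ribosome or regulate it were counted in the same 3 drug responses, where the shares of all genes called higher and lower were 20.6% and 21.7% in wild type, 22% and 22.6% in Ino80ko, and 28.7% and 28.2% in Snf2hko. Of 61 assembly factors tested, BRM014 raised 3 and lowered 25 in wild type of the second batch (median -0.12), raised 20 and lowered 6 in Ino80ko (0.092), and raised 6 and lowered 21 in Snf2hko (-0.082). The smallest adjusted p among falls in wild type belonged to Las1l, which cuts a spacer of the rRNA precursor (-0.57 ± 0.09), and the helicase Ddx10 (-0.36 ± 0.06), and among rises to Noc2l (0.29 ± 0.07). In Snf2hko, Nop10 of the H/ACA particles fell by 0.70 ± 0.08 and Gar1 of the same particles rose by 0.65 ± 0.13. Of 18 genes of RNA polymerase I, which transcribes rRNA, 6 were lower and 1 higher in wild type, 4 and 3 in Ino80ko (near the shares of all genes), and 14 and 1 in Snf2hko (median -0.29), where Znrd1 fell by 0.64 ± 0.08 and Polr2e, a subunit shared by the 3 polymerases, rose by 0.56 ± 0.09.

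The translation factors listed are other messages with a TOP motif. Of 14 tested, 3 rose (near the share of all genes) and 2 fell in wild type, 8 and 2 in Ino80ko, and 3 and 1 in Snf2hko. Eef1g, an elongation factor subunit, rose in wild type (0.25 ± 0.07) and Ino80ko (0.29 ± 0.07). Pabpc1, the cytoplasmic poly(A)-binding protein, fell in both (-0.49 ± 0.12 and -0.45 ± 0.11) and rose in Snf2hko (0.93 ± 0.12). Of 20 MYC and mTOR regulators, 3 rose and 5 fell in wild type, 5 and 5 in Ino80ko, near the shares of all genes in that line, and 10 and 4 in Snf2hko. Ddit4, an inhibitor of mTORC1, rose by 0.49 ± 0.12, 0.82 ± 0.11 and 1.30 ± 0.11 in the 3 genotypes, and Larp1, which binds TOP messages, rose in Snf2hko (0.77 ± 0.08, edgeR adjusted p = 1.48e-07). Other regulators of this list fell: Deptor in wild type (-0.81 ± 0.08) and Ino80ko (-1.03 ± 0.08), and Mycl in wild type (-1.53 ± 0.20) and Snf2hko (-1.48 ± 0.18). Mxd3 fell in Ino80ko (-0.97 ± 0.13) and Snf2hko (-1.20 ± 0.12). Of 5 paralogs of ribosomal proteins outside the symbol rule, Rpl39l fell in Snf2hko (-1.11 ± 0.11) and Rpl7l1 rose in Ino80ko (0.28 ± 0.06). Counts of these lists with the short-gene covariate were not computed.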

How the data were processed

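RNA was measured in 38 libraries of mouse embryonic stem cells in 17 groups. The deposited values are raw counts per gene with no normalization, per the file headers. Per the submitters' processing notes, the authors used bcl2fastq 2.17 and STAR, with the build GRCm38 (mm10). What program and gene models gave the counts is not given in the sources used here. All 38 columns were matched to samples by name, with 0 left unmapped. Totals were 19349695 to 44453556 counts.

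The test was that of edgeR 4.0.16, run in R 4.3.3 (low counts removed by filterByExpr by group with a minimum count of 10 and a total of 15, TMM, robust quasi-likelihood F-tests, Benjamini-Hochberg over all genes tested, threshold 0.05). There were 28 comparisons: 1 fit of 26 libraries (12517 genes), 1 of 12 (13130 genes), and 2 of the 8 wild-type 24 h libraries (11787 genes), with batch as a term alone or also its interaction with treatment. The 95% intervals are normal. All 42 cytosolic and 63 mitochondrial members passed the filter in each fit. Gene positions and overlaps come from GENCODE M21, promoters from RefSeq. Named are up to 8 members each way by size in the main comparisons and up to 3 in the others, called and, outside interactions, with libraries that do not overlap, plus members with a role fixed by list. Where few were called, others called are named too, some with libraries that overlap. The members, lists and tests were chosen with earlier results of these data known. Scripts were tested on simulated data with 50 genes changed at each size. Of 1.2-fold changes, 24% were recovered for the wild-type drug response of the second batch and 10% for the Snf2hko interaction. Of 1.5-fold changes, 98% and 86% were recovered. A count of 0 called therefore does not show that small changes are absent. Some members are counted but not reported here by name or drawn gene by gene. Alternatives were RLE factors, TMM without the ribosomal protein genes, DESeq2 1.42.0, no low count filter, other vehicles, a replicate block, each library left out and, chosen after seeing the data, the short-gene covariate.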

Additional observations from a re-analysis of the deposited data

Results flagged for a closer look

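The drug effect differed between genotypes by the interaction terms of the edgeR fit of the second batch. Between Snf2hko and wild type it differed in 23 cytosolic members, all lower in Snf2hko (16.8% of all genes lower and 15.8% higher). In the mitochondrial set 3 members were higher and 17 lower. The differences (log2) were -0.66 for Rps14, -0.57 for Rps6, -0.53 for Rpl36a, -0.53 for Rpl26, -0.51 for Rpl31, -0.51 for Rpl38, -0.50 for Rps28 and -0.50 for Rpl14. In the mitochondrial set they were 0.47 for Mrps10, 0.43 for Mrpl37, 0.37 for Mrpl16, -0.81 for Mrps31, -0.72 for Mrpl23 and -0.64 for Mrpl24. With the short-gene covariate Rps6, Rpl14, Mrpl37, Mrpl16, Mrps31 and Mrpl24 stayed called among these 14 genes.

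Between Ino80ko and wild type 4 mitochondrial members differed, all higher, a share close to that of all genes (4.16% higher and 4.87% lower). Mrpl40 (0.57), Mrps27 (0.38) and Mrpl9 (0.38) lead these members. Between Snf2hko and Ino80ko 15 cytosolic members were lower, with Rpl36a at -0.50, Rps24 at -0.47 and Rps4x at -0.45. In the mitochondrial set 2 members were higher and 27 lower. Among all genes 17.5% were lower and 16.4% higher. Rps24 (-0.33) alone of these 3 cytosolic genes stayed called with the covariate. The part of the short-gene median in these differences cannot be fully told apart from the groups.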

How the results depend on the processing

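RLE factors, TMM without the ribosomal protein genes, DESeq2 and the other vehicles changed no direction among the named genes. Without a low count filter, 11 members were higher in Ino80ko, 15 in wild type over both batches, and 25 lower in Snf2hko minus Ino80ko.

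With the short-gene covariate, chosen after seeing the data, the drug response had 28 members higher in wild type of the second batch, 28 over both batches, 13 in Ino80ko, and 3 higher and 0 lower in Snf2hko (median 0.096). The Snf2hko interaction had 3 lower (-0.11), the Ino80ko interaction 2, and Snf2hko minus Ino80ko 1 lower and 1 higher (-0.014). Against wild type, Ino80ko had 7 lower and 3 higher with DMSO (-0.039) and a median of -0.13 with BRM014, and Snf2hko had 18 lower with DMSO (-0.15) and a median of -0.29 with BRM014. Other medians were 0.067 for BRM014 over the analog at 24 h, -0.033 for BRM014 3 h, 0.045 for the analog at 24 h, -0.18 and -0.064 for washout 24 h over BRM014 and DMSO, -0.045 for washout 30 min, and 0.13 for washout 6 h over DMSO. Rpl37a (washout 24 h, -0.0011), Rpl38 (Snf2hko, 0.039) and Rps7 (Snf2hko, 0.0097) changed sign, and the cause was not tested.

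With each library left out, members called higher ranged from 2 to 23 (wild type, second batch), 0 to 31 (both batches), 2 to 11 (Ino80ko), 0 to 1 (Snf2hko) and 0 to 1 (Snf2hko over wild type with DMSO). Those called lower ranged from 1 to 28 (Snf2hko), 0 to 1 (wild type, second batch), 10 to 33 (Snf2hko interaction), 5 to 28 (Snf2hko minus Ino80ko), 6 to 21 and 8 to 27 (Ino80ko against wild type with DMSO and BRM014), and 3 to 7 (Snf2hko against wild type with DMSO). Medians ranged from -0.29 to -0.037 (Snf2hko), 0.11 to 0.30 (wild type, second batch), -0.059 to 0.20 (first batch), 0.012 to 0.30 (between batches), -0.52 to -0.27 (Snf2hko interaction), -0.20 to 0.019 (Ino80ko interaction) and -0.43 to -0.18 (Snf2hko minus Ino80ko). They ranged from -0.27 to -0.085 and -0.35 to -0.16 for Ino80ko against wild type with DMSO and BRM014, and from -0.54 to -0.31 for Snf2hko with BRM014. In the time course they ranged from -0.10 to 0.069 (6 h), -0.073 to 0.22 (DMSO 24 h over 1 h), 0.027 to 0.32 (analog 24 h), 0.074 to 0.25 (washout 30 min), -0.19 to 0.030 (washout 1 h), -0.13 to 0.15 (washout 6 h over DMSO) and -0.062 to 0.23 (washout 24 h over DMSO). A lone library is assumed to vary like the other groups.

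Replicate numbers did not pair the samples: deviations of same-numbered libraries correlated at -0.28 to 0.34 over 78 pairs of groups in the first batch and -0.12 to 0.29 over 6 in the knockouts. With the replicate block 17 members were higher in wild type of the second batch, 7 in Ino80ko and 10 over both batches, and 15 were lower in Snf2hko, 26 in its interaction and 19 in Snf2hko minus Ino80ko.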
